A study of Mus musculus with 7 samples.

Results

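The genes described here encode potassium, sodium and pacemaker channels and their auxiliary subunits, measured in cultured mouse cardiac mesenchymal progenitors (CMPs) and in whole heart RNA. Members were all gene names of the array design that begin with Kcn, Scn or Hcn and end in a subfamily number (for sodium channels, a number and the letter a or b). One inward-rectifier gene that fits this pattern was set aside and is not analysed here. This gave 108 genes with 162 probes, of 34792 gene names with 55670 probes on the array. By subfamily they were 9 sodium channel alpha subunits, 4 sodium channel beta subunits, 4 pacemaker channels, 40 pore subunits of voltage-gated potassium (Kv) channels, 11 Kv auxiliary subunits, 14 inward rectifiers, 14 two-pore-domain channels and 12 subunits of calcium- or sodium-activated potassium channels.

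Each of 7 samples gave 250 ng of total RNA for Cy3 labelling and 1 single-colour Agilent array. Postmortem CMPs (1 ventricular and 1 atrial culture) came from heart tissue kept for 24 h at 4 °C after death, and living CMPs (1 ventricular and 1 atrial culture) from tissue that the labels call living. All 4 were adult C57BL/6 mouse cells grown on collagen I with bFGF, a fibroblast growth factor, at 40 ng/ml and 10% serum in the medium. The adult heart sample (1 array) was commercial total RNA. The fetal hearts (2 arrays, embryonic day 16.5, C57BL/6) were 1 of the transgenic line C57BL/6-Tg(Myh6-EGFP)MG2 and 1 wild type, abbreviated Tg and WT. The transgene places EGFP under the promoter of Myh6, a myosin gene of heart muscle. Nothing in the labels says that arrays of a group are separate animals or cultures beyond chamber and genotype, so p-values measure only the spread between these arrays. The adult heart has no replicate, and its comparisons borrow the spread of the other arrays.

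Channels of these families set the electrical behaviour of heart muscle. Voltage-gated sodium channels carry the upstroke of the action potential, Kv channels repolarise the cell, inward rectifiers hold the resting potential, two-pore-domain channels carry background potassium current, and pacemaker channels carry the inward current that starts each beat in nodal cells. Beta, Kcne, Kcnab and Kcnip subunits do not form the pore and change the gating or the surface level of the pore subunits. Stromal cells and smooth muscle use some of the same families, mainly potassium channels, without firing cardiac action potentials.

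The level of a gene is the log2 processed signal of its probe minus the 75th percentile of its array, so that 0 is the level of the 75th percentile probe. A probe is called above background where the scanner program flags it well above background. Where 4 CMP levels are listed they belong to the postmortem ventricular, postmortem atrial, living ventricular and living atrial array, in that order, and the 2 fetal levels to Tg and WT. Levels of different genes come from different probes and are not compared with each other. Differences are in log2 units with a standard error (SE), from 1 limma fit of all genes, and "called" means an adjusted p under 0.05.

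The 4 CMP arrays and the 3 heart arrays carried the markers of their labels. Of 10 cardiomyocyte markers, 0 to 4 were above background on a CMP array and all 10 on each heart array, with a summed log2 level between -1.61 and -0.98 in CMPs and between 11.72 and 12.89 in hearts. All 8 stromal markers were above background on all 7 arrays, with summed log2 levels of 10.66 to 11.04 in CMPs and 8.80 to 9.22 in hearts. Endothelial markers (7 or 8 of 8 on a CMP array, 8 of 8 on a heart array) summed to 3.30 to 4.25 in CMPs and 5.25 to 5.93 in hearts, and Schwann cell and neuron markers (6 of 12 on each CMP array, 8 to 10 on a heart array) to 5.49 to 5.88 in CMPs and 3.44 to 5.79 in hearts. Smooth muscle and pericyte markers summed to 7.74 to 8.72 in CMPs and 8.42 to 9.46 in hearts, leukocyte markers to 5.58 to 6.16 in CMPs and 4.77 to 6.56 in hearts, and erythroid markers to -3.89 to -3.17 in CMPs and 10.33 to 11.10 in hearts. The part of these cell types in the channel differences was not tested. In heart RNA, fewer cells of a type and less RNA per cell cannot be told apart. All CMP arrays lay in 1 column of the slide and all heart arrays in the other, so slide position and the difference between CMPs and hearts cannot be told apart.

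Fewer channel genes were above background in CMPs than in hearts. They were 40 of 108 on the postmortem ventricular, 33 on the postmortem atrial, 28 on the living ventricular and 31 on the living atrial array, against 53 in adult heart, 51 in fetal heart Tg and 64 in fetal heart WT. In percent, 37.0, 30.6, 25.9 and 28.7 of the channel genes were above background on the CMP arrays, where 58.0, 55.3, 54.6 and 54.8 of all genes were. The hearts had 49.1 (adult), 47.2 (Tg) and 59.3 (WT) percent of channel genes beside 54.9, 57.7 and 60.8 percent of all genes. Counted over arrays, 24 channel genes (22.2%) were above background on all 4 CMP arrays and 43 (39.8%) on all 3 heart arrays, beside 50.3% of all genes in either case. On no CMP array were 60 (55.6%, beside 37.3% of all genes), and on no array at all 34 (31.5%, beside 28.5% of all genes). Of the 60, 11 were above background on all 3 heart arrays (10.2% of the channel genes, beside 1.54% of all genes). With the scanner program's less strict flag, positive and significant, 38 channel genes were detected on all 4 CMP arrays and 22 on none. The share of all genes under that flag was not computed. No gene was well above background on all 4 CMP arrays and no heart array (0.532% of all genes were).

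**Figure D1:**
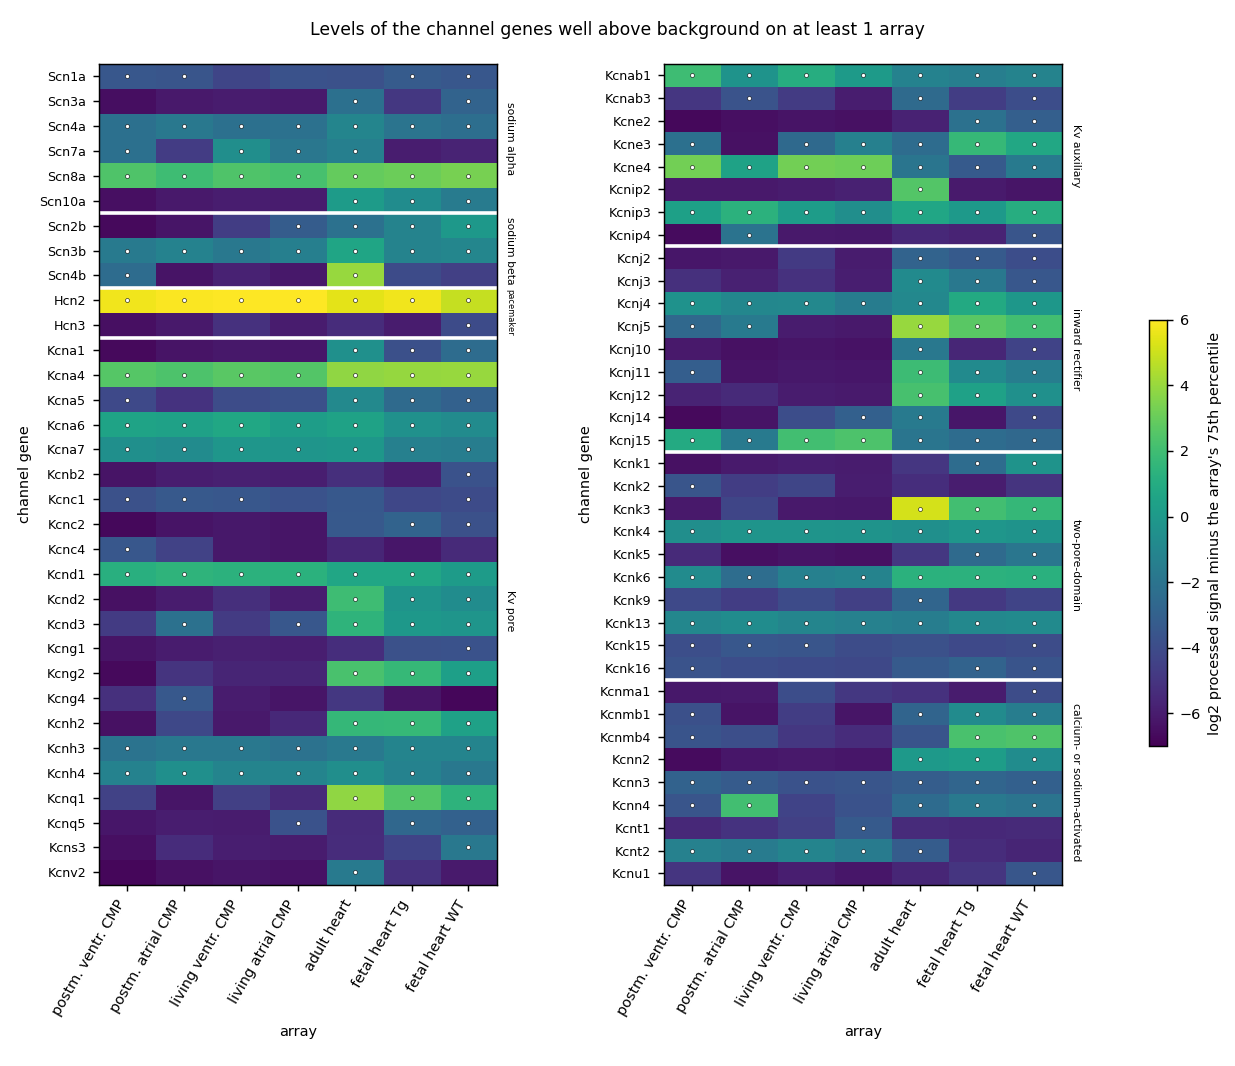
Levels of 69 channel genes above background on at least 1 array, by subfamily (rows) and array (columns). Colour gives the log2 processed signal minus the array's 75th percentile, and a white dot marks a probe well above background. Blocks of dots confined to the 3 heart columns, such as Kcnk3, Kcnq1, Kcnh2 and Kcnn2, are among the 11 genes above background on all heart arrays and no CMP array.

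The first comparison sets CMPs against heart. Most channel genes that could be tested were lower in CMPs. Kcnk3, Kcnq1, Kcnh2, Kcnd2, Kcnj12 and Kcnn2, which carry repolarising and background potassium currents of heart muscle, were not above background on any CMP array. A small group was higher in CMPs than in both heart ages, among them Kcne4, Kcnj15, Kcnab1 and Kcnt2. Against fetal heart 52 channel genes were tested, of which 9 were called higher and 29 lower in CMPs, where 22.8% of all tested genes were called higher and 25.2% lower. Against adult heart 53 were tested, of which 5 were called higher and 30 lower, where 24.6% of all tested genes were called higher and 24.6% lower.

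The filter bears on these counts. The test took genes with signal above background throughout 1 side or both. Thus 29 of the 52 genes against fetal heart and 29 of the 53 against adult heart were tested through 1 side alone. Such a choice favours a difference in that direction. In each comparison 16 of the 29 were above background on no array of the other side. Of all genes tested, 16.0% against fetal and 19.5% against adult heart were tested through 1 side alone. Among the 23 channel genes above background on all arrays of both CMPs and fetal heart, 8 were called higher and 4 lower in CMPs, where 24.3% of all such genes were called higher and 20.1% lower. Their median difference was 0.04 (all such genes 0.07). Among the 24 above background on all arrays of both CMPs and adult heart, 5 were called higher and 5 lower, where 26.0% of all such genes were called higher and 18.4% lower. Their median was -0.11 (all such genes 0.12). Over all tested channel genes the median difference was -1.48 against fetal heart and -2.33 against adult heart, or -1.28 and -2.14 with genes dim on a whole side placed at their bound, beside -0.01 and 0.00 for all genes. Scaling the arrays to probes above background on all 7 moved the median of all genes by -0.16 against fetal and -0.23 against adult heart, and the counts to 8 higher with 30 lower and 5 higher with 32 lower. Of all 20052 genes tested against fetal heart, 3869 were then called higher and 5882 lower. Of all 20278 tested against adult heart, 4060 were called higher and 5930 lower.

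Among sodium channels, the beta subunits Scn4b, Scn3b and Scn2b were lower in CMPs than in adult heart. Scn4b, a beta subunit known in heart muscle, was at -2.42, -6.34, -5.75 and -6.16 in CMPs, of which only the postmortem ventricular array was above background, and at 3.99 in adult heart (difference -9.15, SE 0.95, adjusted p = 0.00129). Scn3b, measured on all arrays, was at -1.64, -1.22, -1.80 and -1.37 in CMPs, against 0.64 in adult heart and -1.20 and -1.06 in fetal hearts. It was called lower than adult heart (-2.14, SE 0.31, adjusted p = 0.00344) and not against fetal heart (-0.38, SE 0.24, adjusted p = 0.244). Scn2b was above background on the living atrial CMP array and on no other CMP array, at -6.65, -6.28, -4.64 and -3.23 in CMPs, against -2.13 in adult heart and -1.17 and -0.09 in fetal hearts. It was called lower in both comparisons (-3.07 against adult heart and -4.57 against fetal heart, adjusted p = 0.00967 and 0.0011).

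Of the 9 alpha subunits, 2 of 5 tested were called lower than fetal heart and 3 of 6 lower than adult heart, and none was called higher. Of these calls, 1 and 2 were of genes tested through the heart side alone. Scn10a, known from sensory neurons and also described in heart, was at -6.46 to -5.93 and not above background in CMPs, against 0.14 in adult heart and -0.66 and -1.59 in fetal hearts. That is at least 25.2-fold lower than adult and at least 10.4-fold lower than fetal heart (adjusted p = 0.000838 and 0.000626). Scn3a was not above background on any CMP array and was at least 4.99-fold lower than adult heart (adjusted p = 0.0126). Scn8a was called lower than fetal heart (-0.95, adjusted p = 0.00558) and adult heart (-0.67, adjusted p = 0.0416) by a probe that holds a repeat, while its other probes were not above background on any array. The call against adult heart was lost without any 1 of the 4 CMP arrays (adjusted p between 0.058 and 0.119).

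Among pacemaker channels only Hcn2 was above background on more than 1 array. Hcn4, the main pacemaker channel of the sinus node, was not above background on any of the 7 arrays. Hcn3 was above background in fetal heart WT alone. The Hcn2 probe of highest mean was above background everywhere, at 5.72, 5.91, 5.97 and 5.95 in CMPs, 5.45 in adult heart, and 5.73 and 4.85 in fetal hearts, and was not called in either comparison (0.44, SE 0.35, adjusted p = 0.333 against adult and 0.60, SE 0.27, adjusted p = 0.123 against fetal heart). A second Hcn2 probe, described with the probes, differed more between the sources.

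Kv pore subunits were called lower for 11 of 18 tested genes against fetal heart and for 11 of 17 against adult heart, of which 10 and 9 were tested through the heart side alone. Of the 8 measured on both sides, 4 were higher and 1 lower than fetal heart, and 0 higher and 2 lower than adult heart. Kcnq1, the pore of the slow delayed rectifier, was at -4.42, -6.26, -4.52 and -5.47 in CMPs, none above background, against 3.83 in adult heart and 2.50 and 1.42 in fetal hearts. That is at least 293-fold lower than adult and at least 79.9-fold lower than fetal heart (adjusted p = 0.000374 and 0.000247). Kcnh2, the pore of the rapid delayed rectifier, was at -6.43 to -4.18 in CMPs, against 1.64 in adult heart and 1.72 and 0.46 in fetal hearts, at least 66.1-fold and 45.1-fold lower in CMPs (adjusted p = 0.00104 and 0.000547).

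Both pores of the fast transient outward current were lower in CMPs. Kcnd2 was not above background in CMPs (-6.40 to -5.25), against 1.96 in adult heart and -0.26 and -0.65 in fetal hearts, at least 88.8-fold and 16.6-fold lower in CMPs (adjusted p = 0.000415 and 0.000382). Kcnd3 was above background on both atrial CMP arrays and on neither ventricular one. It was at -4.76, -2.14, -4.75 and -3.48 in CMPs, against 1.46 in adult heart and -0.08 and -0.24 in fetal hearts (-5.24, SE 0.47, adjusted p = 0.000924 against adult and -3.62, SE 0.37, adjusted p = 0.00108 against fetal heart).

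Kcng2, a silent subunit that modifies other Kv pores, and Kcna1 showed the same pattern. Kcng2 was at least 111-fold lower in CMPs than in adult heart and at least 46.8-fold lower than in fetal heart (adjusted p = 0.000879 and 0.000566). Kcna1 was at least 16.4-fold and 2.62-fold lower (adjusted p = 0.00179 and 0.00508). Kcna5, the pore of the ultrarapid delayed rectifier, was at -4.14, -5.09, -3.96 and -3.85 in CMPs, with the postmortem ventricular array above background, against -0.86 in adult heart and -2.49 and -2.97 in fetal hearts. It was called lower against both (-3.40, SE 0.51, adjusted p = 0.00391 and -1.53, SE 0.39, adjusted p = 0.0237). The call against fetal heart did not hold without the postmortem atrial, the living ventricular or either fetal array, with an adjusted p between 0.0513 and 0.122.

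Kv pores called higher than fetal heart included Kcna6, Kcna7 and Kcnd1, each by about 1 log2 unit. Kcnd1 was at 1.20 to 1.48 in CMPs and at 0.70 and 0.14 in fetal hearts (0.91, SE 0.23, adjusted p = 0.0232), and this call was lost without the WT array (adjusted p = 0.0976). Kcna6 (1.10, SE 0.22, adjusted p = 0.0105) and Kcna7 (1.00, SE 0.22, adjusted p = 0.015) rest on 1 probe each, and another probe of each gene gave the opposite sign. Without the WT array their adjusted p was 0.0549 and 0.0601.

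The Kv auxiliary subunits Kcne4 and Kcnab1 were higher in CMPs. Kcne4, which inhibits several Kv pores, was at 3.25, 0.47, 3.23 and 3.12 in CMPs, against -1.96 in adult heart and -3.32 and -1.69 in fetal hearts. All CMP levels lay above all heart levels, with the postmortem atrial array the lowest of the 4. The difference was 4.47 (SE 0.87, adjusted p = 0.00936) against adult heart and 5.02 (SE 0.68, adjusted p = 0.00262) against fetal heart. Kcnab1, a cytoplasmic beta subunit of Kv channels, was at 1.95, -0.31, 1.09 and 0.11 in CMPs, against -1.26 in adult heart and -1.46 and -1.20 in fetal hearts (1.97, SE 0.41, adjusted p = 0.0116 and 2.04, SE 0.32, adjusted p = 0.00424).

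The auxiliary subunits known from heart muscle went the other way or were not detected. Kcnip2, the subunit of the transient outward current, was not above background in CMPs and was at least 130-fold lower than in adult heart (adjusted p = 0.000343). Kcne1, the partner of Kcnq1, was not above background on any array. Kcne2 was at least 3.74-fold lower in CMPs than in fetal heart (adjusted p = 0.0018), and Kcne3, above background on 3 of the 4 CMP arrays, was lower too (difference -4.40, SE 1.06, adjusted p = 0.0192).

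Inward rectifiers were called lower for 6 of 7 tested genes against fetal heart and for 7 of 9 against adult heart, of which 5 and 7 were tested through the heart side alone. Of the 2 measured on both sides, 1 was higher and 1 lower than fetal heart, and 1 higher and 0 lower than adult heart. Kcnj5, a pore of the acetylcholine-activated current of atrial muscle, was at -2.62, -1.65, -6.03 and -6.11 in CMPs, against 3.98 in adult heart and 2.70 and 2.07 in fetal hearts. It was above background on both postmortem and neither living array, and was called lower in CMPs than in adult (-8.08, SE 0.45, adjusted p = 0.000331) and fetal heart (-6.48, SE 0.34, adjusted p = 0.0002). Its partner Kcnj3 was not above background in CMPs, at least 13.2-fold lower than adult and at least 3.71-fold lower than fetal heart (adjusted p = 0.00408 and 0.00863).

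Kcnj12 and Kcnj2, rectifiers that set the resting potential, were likewise below background in CMPs. Another inward rectifier, Kcnj4, was above background on every array. Its levels were -0.37, -1.01, -0.96 and -1.53 in CMPs, -0.92 in adult heart, and 0.91 and -0.11 in fetal hearts. Kcnj12 was at least 105-fold lower than adult and at least 22.5-fold lower than fetal heart (adjusted p = 0.000419 and 0.000349). Kcnj2 was dim in the hearts too, at -2.84 in adult and -3.30 and -3.91 in fetal heart, so that its bounds were only 3.19-fold and 1.87-fold (adjusted p = 0.011 and 0.0128). The call against fetal heart was lost without the Tg array (adjusted p = 0.0827). Kcnj11, the pore of the ATP-sensitive channel of heart muscle, was above background on the postmortem ventricular CMP array alone (-3.12, with -6.30 to -6.14 on the others), against 1.91 in adult heart and -0.79 and -1.47 in fetal hearts (-7.36, SE 0.86, adjusted p = 0.00187 and -4.32, SE 0.67, adjusted p = 0.00425).

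Kcnj15 was the exception, as the only inward rectifier called higher in CMPs. It was above background everywhere, at 0.93, -1.70, 2.08 and 2.36 in CMPs, against -1.96 in adult heart and -2.42 and -2.61 in fetal hearts. Every CMP level lay above every heart level, with the postmortem atrial array close to adult heart. The difference was 2.88 (SE 0.75, adjusted p = 0.0241) against adult and 3.43 (SE 0.58, adjusted p = 0.00564) against fetal heart. Without the WT array these adjusted p became 0.0642 and 0.0536, and without the Tg array the call against adult heart was also lost (adjusted p = 0.0642).

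Among two-pore-domain channels, 4 of 7 tested genes were called lower than fetal heart and 3 of 5 lower than adult heart, of which 3 and 2 were tested through the heart side alone. Kcnk3, an acid-sensitive background channel, was at -6.09, -4.27, -6.10 and -6.17 in CMPs, none above background, against 5.19 in adult heart and 2.06 and 1.67 in fetal hearts. That is at least 783-fold lower than adult and at least 78.5-fold lower than fetal heart (adjusted p = 0.00032 and 0.000259). Its probe lies at chr5:30927090-30927149 (mm9, plus strand). Kcnk6, measured on all arrays, was at -0.73, -2.37, -1.33 and -1.16 in CMPs, against 1.31 in adult heart and 1.37 and 1.26 in fetal hearts (-2.71, SE 0.50, adjusted p = 0.00809 and -2.71, SE 0.39, adjusted p = 0.00332).

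Among calcium- or sodium-activated channels, Kcnn2, a small-conductance channel, was at least 23.2-fold lower in CMPs than in adult heart and at least 19.3-fold lower than in fetal heart (adjusted p = 0.000803 and 0.000364). Kcnmb4, a beta subunit of the large-conductance channel, was at -3.62, -3.87, -4.91 and -5.38 in CMPs, against 2.27 and 2.44 in fetal hearts (-6.80, SE 0.28, adjusted p = 0.000119). Kcnmb1, the beta subunit of that channel in smooth muscle, was lower than in fetal heart (difference -4.15, SE 0.42, adjusted p = 0.00106). Kcnt2, a sodium-activated channel, was higher. Its levels were -1.30, -1.57, -1.14 and -1.57 in CMPs, against -3.21 in adult heart (1.82, SE 0.40, adjusted p = 0.0139) and -5.37 and -5.66, not above background, in fetal hearts (at least 8.69-fold, adjusted p = 0.000449).

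**Figure D2:**
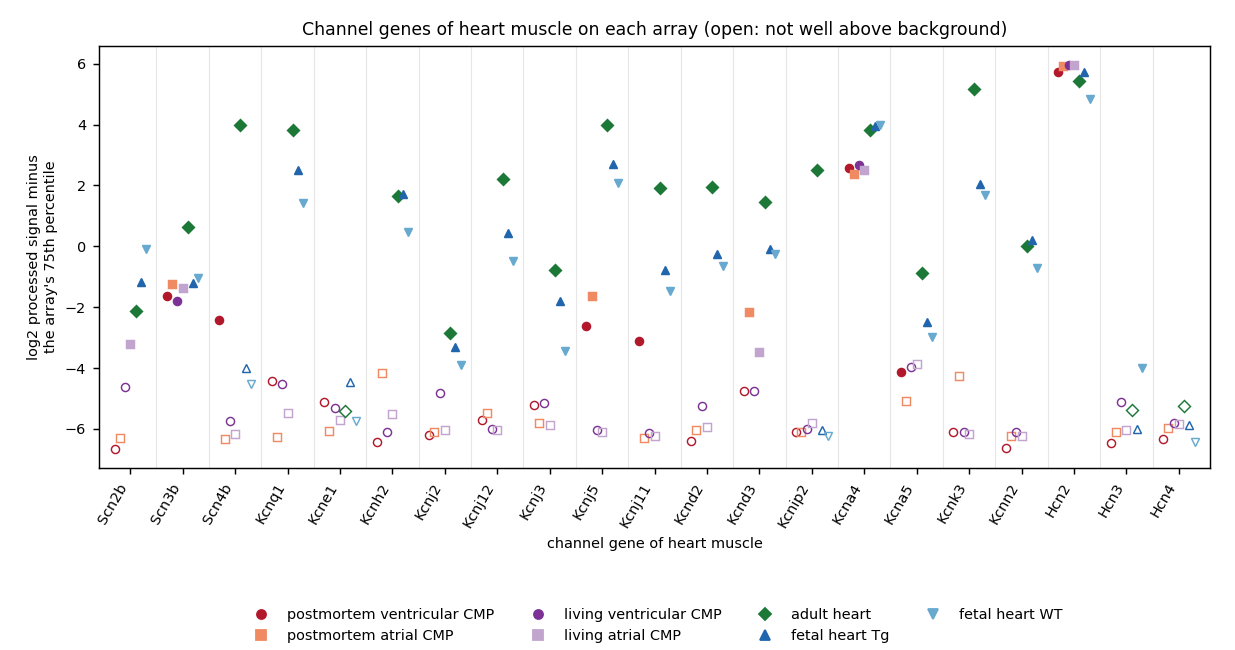
Levels of 21 channel genes of heart muscle (horizontal axis) on each of the 7 arrays, as log2 processed signal minus the array's 75th percentile (vertical axis). Filled symbols are well above background and open ones are not. Against adult heart 17 of the 21 were called lower in CMPs, where 24.6% of all tested genes were called lower. Of the 17, only Scn3b and Kcna4 were above background on all CMP arrays. The others were tested through the heart side alone. Hcn2 and Kcna4 stayed within 1.61 log2 units over the arrays.

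**Figure D3:**
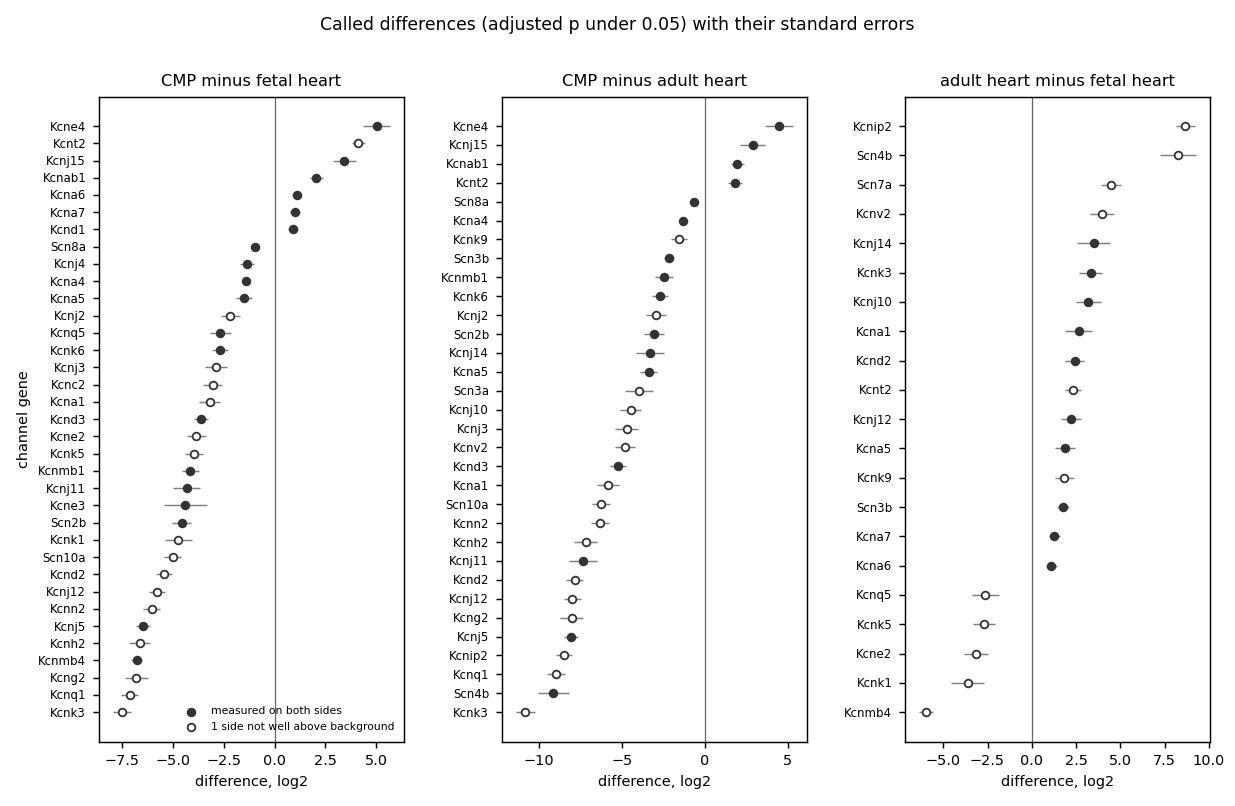
Called differences of channel genes (adjusted p under 0.05, limma) in the 3 comparisons that involve heart RNA, in log2 units with standard errors. Open points are genes with 1 side not well above background on any array, whose fitted difference is no bound. Drawn are 7 genes higher and 28 lower in CMPs against fetal heart, 4 higher and 28 lower in CMPs against adult heart, and 16 higher and 5 lower in adult against fetal heart.

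The second comparison sets adult against fetal heart, which share the fetal arrays with the comparison above and differ in age and in source. Of 61 tested channel genes, 18 were called higher and 5 lower in adult heart, where 18.8% of all tested genes were called higher and 18.2% lower. Of the 61, 18 were tested through 1 side alone, beside 16.4% of all tested genes. They held 8 of the 18 called higher and all 5 called lower, and the filter favours a difference in that direction. The median difference over the 61 was 0.77, beside 0.09 for all genes. With normexp background correction the calls were 20 higher and 2 lower, beside 3529 higher and 3656 lower of all 20946 tested genes. Among the 43 measured on all arrays of both sides, 10 were called higher and 0 lower in adult heart, where 16.6% of all such genes were called higher and 17.1% lower. Their median was 0.55, beside 0.09 for such genes of the array. Of these 43, 17 had an unadjusted p under 0.05 in a limma fit of such genes alone, in which 10 were called. With 1 adult array, which was not of the same RNA source as the fetal ones, age and source cannot be told apart.

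Among the genes that rose were subunits of the cardiac action potential. Kcnip2 was at 2.51 in adult heart, against -6.05 and -6.24, not above background, in fetal hearts (at least 130-fold higher, adjusted p = 0.000793). Scn4b was at 3.99 in adult heart, against -4.01 and -4.52, not above background, in fetal hearts (at least 305-fold higher, adjusted p = 0.00414). Neither was above background in the fetal pair, so both were tested through the adult side alone, as were Scn7a and Kcnv2. Scn7a, a sodium channel of glia and stroma also described in heart, was at -1.38 in adult heart, against -5.95 and -5.72 in fetal hearts (at least 8.8-fold higher, adjusted p = 0.00398). Kcnv2, a silent Kv subunit, was at -1.63 in adult heart, against -5.15 and -6.04 in fetal hearts (at least 7.4-fold higher, adjusted p = 0.00923).

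Scn3b rose by 1.77 (SE 0.34, adjusted p = 0.0132). Kcnk3 rose by 3.32 (SE 0.64, adjusted p = 0.0133), Kcnd2 by 2.42 (SE 0.54, adjusted p = 0.0212) and Kcnj12 by 2.22 (SE 0.56, adjusted p = 0.0293), and each of these 3 calls was lost without the WT array (adjusted p = 0.0607, 0.0732 and 0.0742). Kcnj14 rose by 3.49 (SE 0.93, adjusted p = 0.0352) and was above background in fetal heart WT but not Tg. Kcnq1 (1.87, SE 0.59, adjusted p = 0.0555), Kcnd3 (1.62, SE 0.52, adjusted p = 0.0579), Kcnj5 (1.60, SE 0.49, adjusted p = 0.0506) and Kcnj11 (3.04, SE 0.95, adjusted p = 0.0537) were higher in the adult array than in both fetal arrays without passing the threshold. Kcnh2 (0.55, SE 0.75, adjusted p = 0.591) and Kcnn2 (0.27, SE 0.59, adjusted p = 0.745) overlapped between the ages.

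The 5 genes called lower in adult heart were Kcnmb4, Kcnk1, Kcne2, Kcnk5 and Kcnq5. None of them was above background in the adult array, so all 5 were tested through the fetal side alone. Kcnmb4 was at -3.61 in adult heart, against 2.27 and 2.44 in fetal hearts (at least 54.4-fold lower, adjusted p = 0.000933). Kcnk1 (at least 4.17-fold, adjusted p = 0.032), Kcnk5 (at least 2.32-fold, adjusted p = 0.0233), Kcne2 (at least 1.74-fold, adjusted p = 0.0178) and Kcnq5 (at least 1.53-fold, adjusted p = 0.0415) were lower by smaller bounds. The calls of Kcnk1, Kcnk5 and Kcnq5 did not hold without the WT array (adjusted p = 0.0552, 0.0761 and 0.0995), and that of Kcnq5 not without the Tg array either (adjusted p = 0.113).

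The remaining comparisons ask whether storage of the tissue after death, or the chamber, shows in the channel genes of CMPs. No channel gene was called in either. Between postmortem and living CMPs 31 were tested, with 0 called and 4 at an unadjusted p under 0.05 in limma, where 0.00526% of all 19013 tested genes were called higher and 0.0999% lower. Between ventricular and atrial CMPs 29 were tested, with 0 called and 3 at an unadjusted p under 0.05, where 0% of all 18912 tested genes were called higher and 0% lower (1563 had an unadjusted p under 0.05). With 2 arrays a side and 2 residual degrees of freedom, a p that misses the threshold does not show equal levels. Without 1 CMP array, 1 side of each comparison held a single array. Calls over all genes of the array then rose in both comparisons, and in some of these fits channel genes were called too. Such calls were therefore not particular to channel genes.

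Single genes differed at least 2-fold in both pairs of arrays without passing the test. Kcnj5 was higher in postmortem than in living CMPs by 4.47 between the atrial arrays and 3.41 between the ventricular ones. Its fitted difference was 3.94 (SE 0.39, adjusted p = 0.0626), at least 4.22-fold since neither living array was above background. Kcnj15 was lower in postmortem CMPs, by -4.06 between the atrial arrays and -1.15 between the ventricular ones (fitted difference -2.61, SE 0.67, adjusted p = 0.307). Scn7a was lower in postmortem CMPs in both pairs as well, at -2.20 and -4.67 in postmortem against -0.59 and -1.84 in living CMPs (ventricular, then atrial; difference -2.23, SE 0.43, adjusted p = 0.235).

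Between chambers, Kcnd3 was lower in ventricular CMPs, at -4.76 and -4.75 (postmortem, living) and not above background, against -2.14 and -3.48 in atrial CMPs. This is at least 3.36-fold (difference -1.94, SE 0.41, adjusted p = 0.305). Scn7a was higher in ventricular CMPs, at -2.20 and -0.59, against -4.67 and -1.84 in atrial CMPs (difference 1.86, SE 0.43, adjusted p = 0.349), and its chambers overlapped.

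In 4 genes the difference between the postmortem and living CMP arrays was not the same in ventricle and atrium. A term for this interaction was called for 4 of 31 tested channel genes, where 2.41% of all tested genes were called. Its spread comes from the fetal pair alone (1 residual degree of freedom), and with quantile normalization no channel gene and no gene of the array was called. In each of the 4 the postmortem atrial array stood away from the other 3. A dependence on chamber and 1 deviating culture cannot be told apart. Kcnn4, an intermediate-conductance channel of blood and proliferating stromal cells, was at 2.09 there, against -3.59, -4.40 and -3.72 on the other CMP arrays (interaction -5.00, adjusted p = 4.04e-05). Kcne3 was at -6.41 and not above background there, against -2.21, -2.57 and -1.35 (5.42, adjusted p = 1.23e-06). Kcne4, at 0.47 against 3.12 to 3.25 (2.67, adjusted p = 0.00646), and Kcnj15, at -1.70 against 0.93 to 2.36 (2.91, adjusted p = 0.0123), had their lowest CMP level there too.

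Pairs of CMP arrays differed to unlike degrees over the channel genes above background on at least 1 of the pair. In the 3 pairs with the postmortem atrial array, 43.6% (living atrial), 37.1% (living ventricular) and 34.1% (postmortem ventricular) differed at least 2-fold, beside 19.7%, 22.4% and 19.3% of all genes. In the pairs without it the share was 33.3% between postmortem ventricular and living atrial, 17.5% between postmortem and living ventricular and 18.2% between living ventricular and atrial CMPs, beside 2220 of 20699, 2042 of 20655 and 1771 of 19880 of all genes. The summed log2 level of smooth muscle and pericyte markers was 7.74 on the postmortem atrial array and 8.13 to 8.72 on the other CMP arrays. That of endothelial markers was 3.30 against 3.61 to 4.25, and that of Schwann cell and neuron markers 5.88 against 5.49 to 5.87. Such sums follow their brightest members, and single members went different ways. Rgs5 and Cspg4 were highest on the postmortem atrial array, at 3.25 and 2.95 against -5.54 to 1.59 and -1.67 to 0.05. Acta2 and Tagln were lowest there, at 6.33 and 5.87. Stmn2 was highest there, at 0.31 against -6.55 to -6.03, and Fabp7 lowest, at -6.02. Snap25, the brightest Schwann cell and neuron marker, was at 5.18 to 5.73 in CMPs. The part of these markers in the channel differences was not tested.

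On a single CMP array 16 of the 108 channel genes were above background, beside 2297 of all 34792 genes. The postmortem ventricular array held 9 of them (among them Kcna5, Kcnc4, Kcnj11, Kcnk2, Kcnk16, Kcnmb1, Kcnmb4 and Scn4b), the living atrial array 4 (Kcnj14, Kcnq5, Kcnt1 and Scn2b) and the postmortem atrial array 3 (Kcnab3, Kcng4 and Kcnip4). The shares of all genes by array were not computed. The lowest signal flagged well above background was -5.02, -4.59, -4.36 and -4.06 on the 4 CMP arrays, so the flag reached lowest on the postmortem ventricular one. Kcna5 was flagged there at -4.14 and not on the living arrays, at -3.96 and -3.85. Kcnk16 spanned only 0.49 log2 units over the CMP arrays. Kcnip4, a cytoplasmic subunit of transient outward channels, was at -2.06 on the postmortem atrial array and at -6.63 to -6.11 on the others.

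**Figure D4:**
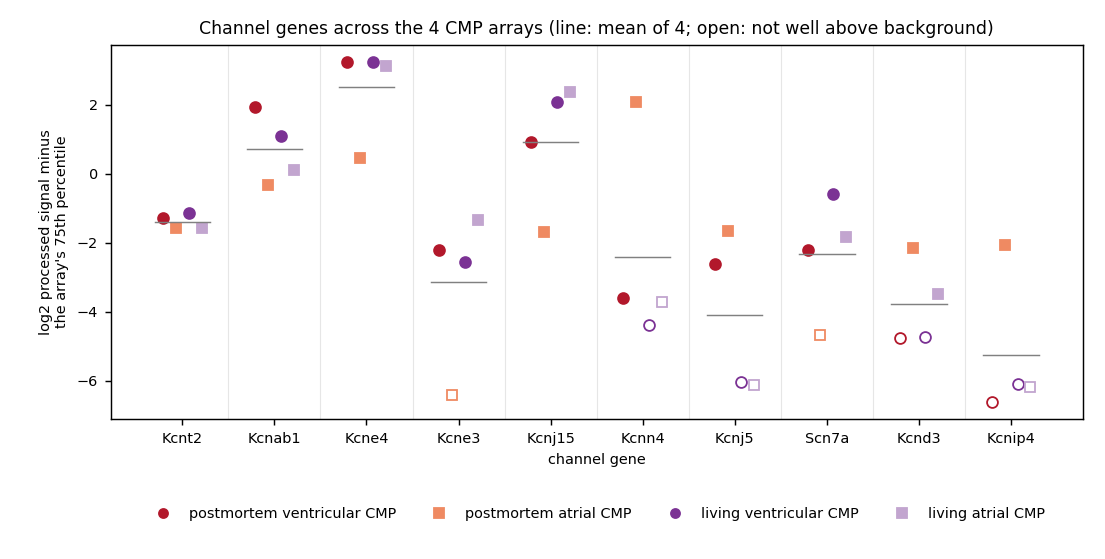
Levels of 10 channel genes on the 4 CMP arrays, as log2 processed signal minus the array's 75th percentile, with a line at the mean of the 4. Filled symbols are well above background. Kcnt2 kept within 0.43 log2 units over the arrays, whereas Kcnn4, Kcne3, Kcne4 and Kcnj15 differed most on the postmortem atrial array.

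Several genes above background on all 7 arrays differed little over the arrays, and their probes bear on how they can be read. Of 23 such genes, 5 stayed within 2-fold over the 7 arrays (among them Kcnk4, Kcnk13, Kcnh3 and Kcnn3) and 15 within 4-fold, Hcn2 among them. Of the 26 channel probes above background on all arrays, 19.2% stayed within 2-fold, beside 25.4% of all such probes of the array. In 4 genes the probe of highest mean was above background on all 7 arrays and every other probe of the gene on none, among them Kcnh4, Kcnn3 and Scn8a.

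Where a gene had a second bright probe, the probes could go opposite ways. The highest-mean probe of Kcna6 was higher in CMPs than in fetal heart by 1.10. A second probe was at -6.46, -3.85, -5.99 and -2.52 in CMPs, against 0.66 in adult heart and 0.24 and 1.33 in fetal hearts, a difference of -5.49 from fetal heart (adjusted p = 0.000368). For Kcna7 the second probe gave -1.12 against fetal heart (adjusted p = 0.0675), with 2.03 in adult heart against -1.35 and -2.57 in fetal hearts. For Hcn2 it gave 1.37, at 0.74, 1.11, 0.65 and 0.55 in CMPs, 1.70 in adult heart, and -0.35 and -0.86 in fetal hearts. In Kcne4 and Kcna5 the probes went the same way: the second probe of Kcne4 was higher in CMPs than in fetal heart by 4.41 and that of Kcna5 lower (difference -6.07).

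Stretches of 30 bases of these probes are shown because repeats and base composition are what sets them apart. Each is read 5′ to 3′ from the deposited tables with its first and last base in the 60-base probe, and positions are those of the whole probe on mm9. In Scn8a and Kcna4 capitals mark an alternating repeat (16 and 13 bases long), in Hcn2 they mark CG, and in Kcna6 they mark nothing.
Scn8a, highest mean, chr15:100875702-100875761, plus strand, bases 11 to 40: acatgtaTGTGTGTGTGTGTGTGaagaatg
Kcna4, only probe, chr2:107138207-107138266, plus strand, bases 23 to 52: ttttgtgtaTGTGTGTGTGTGTctgtgtgt
Hcn2, highest mean, chr10:79198412-79198471, plus strand, bases 1 to 30: tgCGccCGgctgtccccccatCGccctgCG
Hcn2, other probe, chr10:79198592-79198651, plus strand, bases 1 to 30: agaatatggatcaagtgcaatactCGgccc
Kcna6, highest mean, chr6:126686702-126686761, minus strand, bases 1 to 30: tgtcatggtccctctttgtgcctcagttcc
Kcna6, second bright probe, chr6:126658424-126658483, minus strand, bases 1 to 30: gagagttgctggtctgatcaaaggagagga

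The Hcn2 probe of highest mean had 81.7% G and C over its 60 bases, more than the other Hcn2 probe. Over the whole array, 78.1% of the 421 probes with an alternating repeat of at least 10 bases were above background on all 7 arrays, as were 65.8% of the 38 probes with at least 80% G and C, beside 38.0% of all probes and 16.0% of channel probes. Whether these probes bind other transcripts was not tested. Kcna4, the pore of a transient outward current, has only the repeat-bearing probe. It was at 2.59, 2.37, 2.67 and 2.51 in CMPs, against 3.83 in adult heart and 3.94 and 3.98 in fetal hearts, and was called lower against both (-1.30, SE 0.18, adjusted p = 0.00293 and -1.43, SE 0.14, adjusted p = 0.00091).

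**Figure D5:**
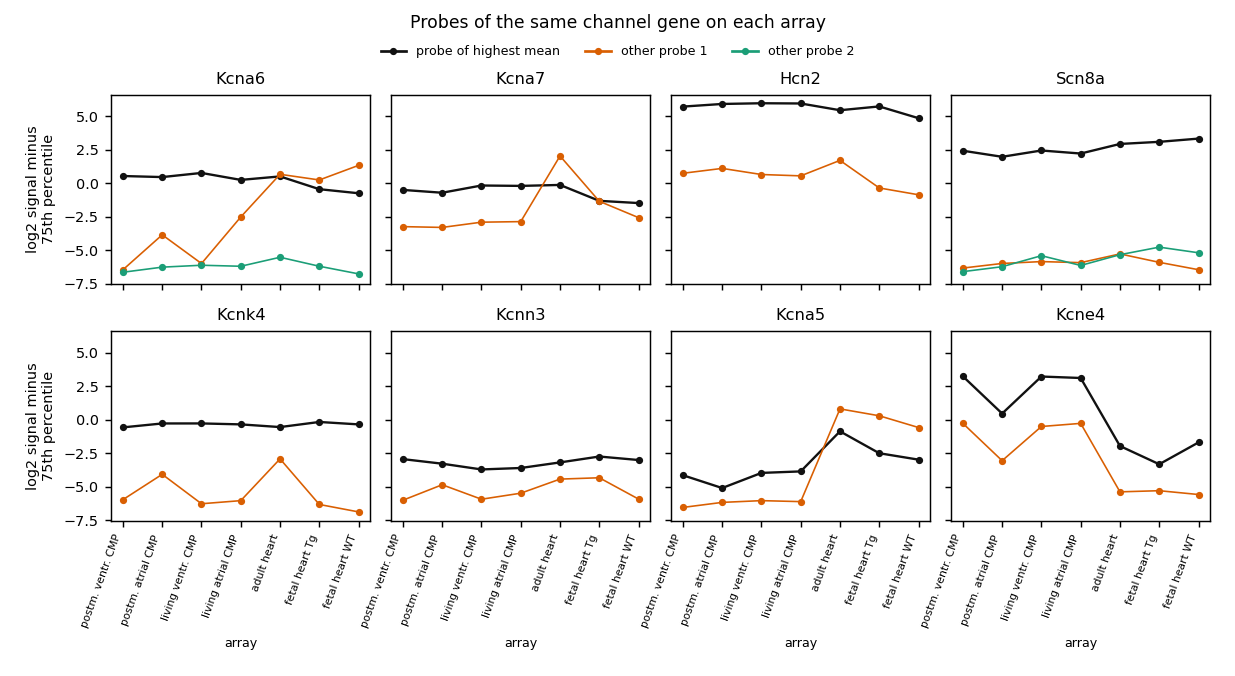
Levels of every probe of 8 channel genes on the 7 arrays (horizontal axis), as log2 processed signal minus the array's 75th percentile (vertical axis). Black lines are the probe of highest mean, which stands for the gene. In Kcna6 and Kcna7 the probes go opposite ways between CMPs and fetal heart, in Hcn2, Scn8a, Kcnk4 and Kcnn3 the black line spans at most 1.36 log2 units, and in Kcna5 and Kcne4 the probes go the same way.

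Promoter sequences (RefSeq, build GRCm38.p6, 250 bases before to 50 after the start) were at hand for 77 of the 108 genes, with 103 promoters. They describe the genes that moved together and were tested against nothing. The ratio of observed to expected CG had a median of 0.298 over 8 promoters of 6 genes called higher in CMPs than in fetal heart, of 0.469 over 28 promoters of 21 genes called lower, and of 0.384 over all 32851 promoters. The letters TATAAA, searched on both strands, were in 2 of the 8 and in 0 of the 28 promoters, beside 13.6% of all promoters. AGATAA, a letter string bound by GATA factors, was in 1 of the 8 and 0 of the 28 (11.2% of all), and the MEF2 motif in 0 of the 8 and 0 of the 28 (3.69% of all). No match says only that these letters are not in this window.

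The promoters of a gene higher in CMPs, Kcnj15, and of one higher in fetal heart, Kcnmb4, are shown as examples that differ in base composition. In Kcnj15 capitals mark AGATAA at base 246 and the reverse complement of TATAAA at base 260 of the window, which holds 2 CG. In Kcnmb4 they mark its 48 CG.
Kcnj15, chr16:95257308-95257607, plus strand: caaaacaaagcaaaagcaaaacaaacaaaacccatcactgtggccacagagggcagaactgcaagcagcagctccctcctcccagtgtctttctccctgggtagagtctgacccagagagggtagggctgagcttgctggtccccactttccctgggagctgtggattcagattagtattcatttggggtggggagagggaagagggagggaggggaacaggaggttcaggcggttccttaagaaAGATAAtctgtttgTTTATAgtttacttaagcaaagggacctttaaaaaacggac
Kcnmb4, chr10:116473474-116473773, minus strand: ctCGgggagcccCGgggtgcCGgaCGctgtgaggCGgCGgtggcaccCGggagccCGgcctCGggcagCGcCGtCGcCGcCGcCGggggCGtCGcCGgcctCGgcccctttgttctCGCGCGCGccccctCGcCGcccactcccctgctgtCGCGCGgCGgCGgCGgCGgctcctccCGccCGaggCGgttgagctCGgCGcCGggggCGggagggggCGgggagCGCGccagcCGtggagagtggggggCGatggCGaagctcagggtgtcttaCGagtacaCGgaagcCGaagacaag

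A list of 28 partners holds genes whose products bind or regulate these channels. Against fetal heart 22 were tested, with 1 called higher and 9 lower in CMPs (22.8% and 25.2% of all tested genes), and against adult heart 21, with 3 higher and 10 lower (24.6% and 24.6% of all). The sulfonylurea receptors Abcc8 and Abcc9, partners of Kcnj11, were lower than in adult heart (differences -6.00 and -8.04, adjusted p = 0.000339 and 0.000532). Abcc8 was above background in CMPs, at -2.02 to -1.67, and Abcc9 on 1 of the 4 CMP arrays. Rangrf, a channel trafficking factor, was at 0.92, 0.99, 0.95 and 0.84 in CMPs, against 4.69 in adult heart and 3.23 and 2.73 in fetal hearts (adjusted p = 0.000497 and 0.00094). Dlg1, a scaffold of Kv and sodium channels, was the member called higher in both comparisons (1.73 against adult and 1.06 against fetal heart, adjusted p = 0.00433 and 0.0092). Between adult and fetal heart 22 partners were tested, with 5 called higher and 1 lower in adult heart, and in the 2 comparisons among CMPs none of 21 and 20 was called.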

How the data were processed

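Intensity values are the deposited scanner output of 7 single-colour arrays: per the file headers, the processed signal is the spot signal after background subtraction with spatial detrending and a multiplicative detrend. The file headers name Feature Extraction 10.7.3.1 and the submitters' processing notes name version 9.5.3. The deposited series table holds log2 values that equal the log2 scanner values minus a constant per array (100% of values within 0.001), with column medians between -4.25 and -3.60. The share of probes flagged well above background was 46.5% to 52.5% per array, no spot was saturated, and the number of arrays limits the precision. All 7 arrays were on 1 slide and in 1 scan.

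From the intensities, log2 of the processed signal minus the array's 75th percentile was computed, spots of a probe were averaged, and the probe of highest mean stood for its gene. One limma fit (version 3.58.1, R 4.3.3, eBayes with trend, 2 residual degrees of freedom) covered all genes and arrays, with Benjamini-Hochberg adjustment over all genes tested in a comparison. Tests took genes whose probe had that flag throughout 1 side of a comparison or both. Bounds ("at least") set the brighter side's mean against the dim side's mean of, per array, the higher of the lowest well-above-background signal and the probe's own. The code was tested on simulated data.

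The members, gene lists and marker lists were chosen with earlier results of these data known. Named genes were a list of 25 heart channel genes, up to 6 genes per direction with the largest called differences in each comparison with heart, those above background on all 4 CMP arrays or on 1 of them, and those at least 2-fold apart in both pairs of CMP arrays. Other named genes were chosen after their values were seen. Alternatives changed the background correction, normalization, probe choice, filter, variance prior, samples and covariates. Gene names and probe positions (mm9) are those of the array files, and exons or UTRs were not annotated here. Results of some members are not reported here, while counts cover all members unless a caption says what is drawn.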

Additional observations from a re-analysis of the deposited data

Results flagged for a closer look

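Over the 4 CMP arrays, 48 channel genes above background on at least 1 of them were examined for an array that stood far from the other 3. By Dixon's criterion 7 met it. Its nominal rate of about 1 in 20 groups does not apply here, since genes above background on a single CMP array entered through that array. Kcnip4, Kcnj11, Kcnq5 and Scn4b entered that way. The share of all genes that meets the criterion was not computed. The postmortem atrial array stood apart for 4 of the 7. Kcne4 was low there at 0.47, while Kcnh4 at -0.50, Kcnip4 at -2.06 and Kcnn4 at 2.09 were high. The postmortem ventricular array stood apart for Kcnj11 at -3.12 and Scn4b at -2.42, and the living atrial array for Kcnq5 at -3.74. All 3 were high on that array and not above background on the other CMP arrays.

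In 4 genes the difference between postmortem and living CMPs differed between ventricle and atrium by an interaction term in limma. It was 5.42 for Kcne3, 2.67 for Kcne4, 2.91 for Kcnj15 and -5.00 for Kcnn4, with the ventricular difference minus the atrial one. The term has 1 array in each cell, and its spread comes from the fetal pair. It cannot tell a dependence on chamber from 1 deviating culture.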

How the results depend on the processing

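Of 88 called differences of 61 named genes, 54 kept their direction and call under every alternative in which the gene was tested. Of the 88, 34 lost the call under at least 1, and 3 changed sign under at least 1. An alternative that left a gene untested was not counted as a loss. The sign changed with the mean of all probes for Kcna6 (-1.41) and Kcna7 (-0.058) in CMPs against fetal heart, with another probe for the same genes (-5.49 and -1.12), and with another probe for Kcna6 in adult against fetal heart (-0.12). Requiring signal on every array of both sides left 13 calls against fetal heart, 11 against adult heart and 10 between the hearts, since fewer genes were tested. Over all genes of the array, 7667 of 16837, 7320 of 16323 and 5722 of 17510 were called there. Between the hearts, 35 of 61 tested channel genes were called with those arrays fitted alone (1 residual degree of freedom). In that fit 8579 of all 20946 tested genes were called, and the cause was not tested. With no filter 1 channel gene was called between postmortem and living CMPs, beside 53 of all 34792 genes. The interaction was called for 0 genes with quantile normalization, 2 with scaling to probes above background on all arrays and 2 without a trend in the prior, and the cause was not tested. Over all 19013 tested genes, 0, 241 and 112 were called there. The less strict detection flag gave 38 genes on all 4 CMP arrays and 22 on none. Without 1 array at a time, calls ranged from 30 to 39 for CMPs against fetal heart, from 34 to 34 against adult heart, from 15 (without fetal heart WT) to 31 between the hearts, from 0 to 9 between postmortem and living CMPs, and from 0 to 11 between ventricular and atrial CMPs. Where 1 array was left on a side, it was assumed to vary like the others. A slide or scan block was not run, as there was 1 slide and 1 scan. Dim probes limit the bounds of genes below background.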
